A study of Mus musculus with 6 samples.

Results

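The 10 genes described here encode precursors of neuropeptides found in sensory (afferent) neurons and in the efferent neurons that project to the cochlea. They are Pdyn, Penk, Calca, Calcb, Tac1, Sst, Npy, Vip, Cartpt and Adcyap1. The list was drawn up by gene symbol around the higher level of Pdyn in old nerves, so the members were chosen by a measured value, the old and young normalised read counts of Pdyn, and that difference is given as a description with no test. Of the 10 symbols, 9 matched a row among the 17607 genes of the deposited table, and Sst is not analysed here. RNA was sequenced from auditory nerves microdissected out of the cochleas of CBA/CaJ mice, which belong to an inbred line. The mice were 3 old animals aged 2.5 years and 3 young adults aged 2 months, and no treatment or allele is labelled in either group. Each library holds the pooled nerve tissue of both cochleas of 1 mouse, so replicates are separate animals. The recovered reads came to between 34587979 and 38835751 in the old libraries and between 35213213 and 40841478 in the young libraries.

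A neuropeptide is made as a longer precursor, cut by convertases in the secretory pathway, trimmed and often amidated, stored in dense-core granules and released on strong or sustained firing. It then acts on G protein-coupled receptors, usually more slowly and over a wider range than a classical transmitter. In the inner ear, peptides such as enkephalins, dynorphins and CGRP are known from the olivocochlear efferents, whose cell bodies lie in the brainstem, and substance P and CGRP are known from sensory fibres. Precursor mRNA is found mainly around the cell body, and the spiral ganglion neurons have theirs within the nerve.

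The libraries carried the markers of the labelled tissue. All 8 neuron markers were present, with summed normalised read counts of 202641 to 310291 in old nerves and 355885 to 381244 in young nerves, as were all 5 markers of myelinating Schwann cells (313816 to 368297 in old and 318780 to 366044 in young). The defining efferent genes Chat and Slc18a3 and the noradrenergic gene Dbh had no row and are not analysed here. The choline transporter gene Slc5a7 stood at 3.8 to 22.2 in old and 23.1 to 35.4 in young nerves. Th, listed as a marker of both noradrenergic neurons and type II afferents, was detected (87.3 to 192 in old, 87.5 to 178 in young). The noradrenergic gene Slc18a2 was detected as well (195 to 222 in old, 203 to 399 in young). Slc6a2, also on the noradrenergic list, was at 4.23 to 5.69 in old and 2.2 to 41.4 in young nerves. Hair cell (1734 to 3760 in old, 2083 to 5043 in young), osteoblast (1798 to 2890 in old, 3264 to 4412 in young) leukocyte (5181 to 7126 in old, 2751 to 3587 in young) and fibroblast or meninges (42042 to 85411 in old, 44273 to 49273 in young) markers were detected too, so the tissue was mixed.

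Pdyn encodes prodynorphin, the source of the dynorphins, which act on the kappa opioid receptor. It stood at 101, 252 and 115 normalised reads in old 1, 2 and 3, against 20.7, 4.91 and 6.61 in young 1, 2 and 3. The old and young libraries did not overlap, as in the 25.5% of all tested genes that had no overlap and were higher in old nerves. The lowest old library was 4.91 times the highest young one. Means were 156 ± 83.5 in old nerves and 10.7 ± 8.66 in young nerves (SD, n = 3 each), a ratio of 14.6. On the log2(value + 1) scale the difference, old minus young, was 3.86 ± 0.57 (SE), and it lay between 3.46 and 4.43 when each library was left out in turn. All of these values come from the libraries in which Pdyn was picked, so they describe the difference and do not test it. The counts behind these values were small, at 481 reads over the old libraries and 33 over the young ones. Because the tissue was sequenced in bulk, more cells of a type and more RNA per cell cannot be told apart here. Pdyn lies on chromosome 2 from 129686549 to 129699938 on the minus strand (mm10), where no other GENCODE M21 gene overlaps it.

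The 250 bases before the transcript start are shown for 4 precursors, since they stand for the patterns met below. Pdyn and Npy had higher means in old nerves, Vip was concentrated in 1 library, and Adcyap1 in 1 library of each age group. The sequences are from RefSeq (GRCm38.p6), written 5′ to 3′ on the gene's own strand, and lie at chr2:129699939-129700188 (minus strand), chr6:49822460-49822709 (plus), chr10:5638968-5639217 (plus) and chr17:93198767-93199016 (plus). Capitals mark TGACGTC, which is most of the cAMP response element TGACGTCA.
Pdyn: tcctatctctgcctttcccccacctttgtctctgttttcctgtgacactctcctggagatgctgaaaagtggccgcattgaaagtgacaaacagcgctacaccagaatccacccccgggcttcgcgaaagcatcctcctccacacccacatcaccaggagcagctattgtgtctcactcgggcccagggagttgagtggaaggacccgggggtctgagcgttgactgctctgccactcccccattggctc
Npy: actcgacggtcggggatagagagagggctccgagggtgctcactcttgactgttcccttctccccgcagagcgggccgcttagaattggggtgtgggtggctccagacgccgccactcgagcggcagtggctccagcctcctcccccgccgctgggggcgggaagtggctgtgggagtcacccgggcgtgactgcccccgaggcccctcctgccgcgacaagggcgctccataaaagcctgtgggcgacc
Vip: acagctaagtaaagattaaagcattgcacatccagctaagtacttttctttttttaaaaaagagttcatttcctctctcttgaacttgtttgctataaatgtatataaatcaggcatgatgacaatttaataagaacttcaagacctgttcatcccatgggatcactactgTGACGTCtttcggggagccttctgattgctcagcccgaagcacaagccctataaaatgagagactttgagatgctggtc
Adcyap1: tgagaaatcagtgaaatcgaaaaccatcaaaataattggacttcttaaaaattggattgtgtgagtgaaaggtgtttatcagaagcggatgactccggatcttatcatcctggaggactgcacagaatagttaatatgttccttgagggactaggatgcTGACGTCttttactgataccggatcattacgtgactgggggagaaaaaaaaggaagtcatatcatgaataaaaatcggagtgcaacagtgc
RefSeq windows were found for 7 of the 9 precursors (not for Penk or Calcb). TGACGTC or its reverse complement GACGTCA was found in Vip (bases 79 to 73 before the start), Adcyap1 (bases 91 to 85) and Cartpt, which holds the whole TGACGTCA at bases 112 to 105. Among all 32851 such windows 2.78% held TGACGTC on either strand, and 1.55% held TGACGTCA. The shorter TGACG, which these motifs contain, was also in the Calca and Tac1 windows and in 17.8% of all windows. In the Cartpt window 0 of the 250 bases lay outside annotated exons or genes, and in the Tac1 window 68 did. The Cartpt motif, and the Tac1 hit at bases 43 to 39, therefore lay inside annotated sequence. TATAAA or its reverse complement TTTATA was in the Vip window 3 times and in 12.4% of all windows. None of these motifs was in the Pdyn and Npy windows.

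**Figure D1:**
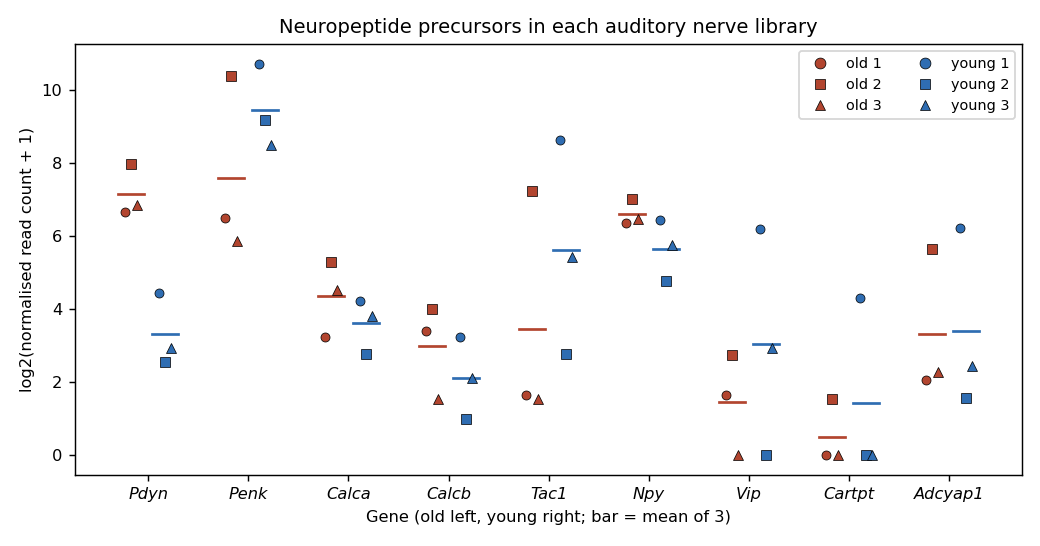
Normalised read counts of the 9 precursors in each library, as log2(value + 1), with old libraries left of young ones for each gene, a marker shape per replicate and a bar at the mean of 3. The 3 old libraries lie above the 3 young ones for Pdyn, whereas in Penk, Tac1, Vip and Adcyap1 the top old point is old 2 and the top young point is young 1.

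Penk encodes proenkephalin, the source of the enkephalins, which act on delta and mu opioid receptors. Its values were 88.8, 1352 and 58 in old 1, 2 and 3, against 1704, 578 and 364 in young 1, 2 and 3. Old 1 and old 3 lay below every young library, while old 2 lay above young 2 and young 3, so the groups overlapped. The difference was -1.88 ± 1.17 on the log2 scale and did not pass in limma (adjusted p = 0.244), and edgeR, which works on the counts, gave -0.82 (adjusted p = 0.602). Without old 2 it was -3.29 and passed as lower in old nerves (limma, adjusted p = 0.0192), and with young 1 also left out it stood at -2.66 (limma, adjusted p = 0.0237). Over the other 4 libraries Penk averaged 73.4 in old 1 and old 3 and 471 in young 2 and young 3, 6.42 times the old level. Leaving out any of the other 5 libraries singly gave no call. Old 2 and young 1 were the highest libraries of their groups in all 9 precursors. The fit without both therefore follows these same values and is no separate support. In GENCODE M21 the start of Penk (chromosome 4 from 4133536 to 4138815, minus strand) is overlapped on the other strand by the noncoding A830012C17Rik, and reads from them cannot be told apart without strand.

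Calca and Calcb encode the alpha and beta forms of CGRP, a vasodilator peptide of sensory fibres and of olivocochlear efferents, and Calca also gives calcitonin by alternative splicing, which a count per gene does not separate. Calca stood at 8.46, 38 and 22.2 in old 1, 2 and 3, against 17.9, 5.9 and 13.2 in young 1, 2 and 3 (0.74 ± 0.63, limma adjusted p = 0.391). Leaving out old 1 raised the Calca difference to 1.29, leaving out old 2 or young 2 lowered it to 0.27 or 0.32, and removing trends in gene length and GC content gave 0.26, with no call in these fits. Calcb had 9, 16 and 2 reads in old 1, 2 and 3, against 9, 1 and 3 in young 1, 2 and 3, too few for the filter. Old and young overlapped in both genes. They are close paralogs on chromosome 7, so reads could be split between them.

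Tac1 encodes the precursor of substance P and neurokinin A. Its values were 2.11, 149 and 1.93 in old 1, 2 and 3, against 398, 5.9 and 41.8 in young 1, 2 and 3. Old 2 was 73.6 times the mean of the other old libraries, and young 1 was 16.7 times the mean of the other young libraries. The difference of -2.14 ± 1.90 did not pass in limma (adjusted p = 0.41), and it ranged from -4.02 without old 2 (adjusted p = 0.0987) to -0.63 without young 1 (adjusted p = 0.823).

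Vip and Adcyap1 encode VIP and PACAP, related peptides that raise cAMP through shared receptors. Vip had 2, 6 and 0 reads in old 1, 2 and 3, against 77, 0 and 6 in young 1, 2 and 3. Nearly all of its reads came from young 1, so its mean of 26.3 ± 40 in young nerves, beside 2.6 ± 2.88 in old nerves, rests on 1 library. In the authors' deposited table Vip has an unadjusted p of 0.0489 and an FDR of 0.114. Adcyap1 had 3.17, 49.3 and 3.87 normalised reads in old 1, 2 and 3, against 74.3, 1.97 and 4.4 in young 1, 2 and 3. Only old 2 and young 1 held more than 5 normalised reads of it, and the means of 18.8 ± 26.5 in old and 26.9 ± 41.1 in young nerves differed by less than either spread. Cartpt, the CART precursor, gave 2 reads in old 2, 20 in young 1 and 0 elsewhere. A count of 0 allows up to 3 reads, or 2.90 to 3.30 normalised reads in the 4 libraries concerned. Calcb, Vip, Cartpt and Adcyap1 were not in the fit, and exact two-sided permutation tests of their log2(value + 1) means gave p = 0.4, 0.5, 1 and 0.9, where 3 mice against 3 cannot go below 0.1.

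Npy encodes neuropeptide Y, a peptide of sympathetic fibres and of many central neurons. It stood at 81.4, 129 and 88 in old 1, 2 and 3, against 85.6, 26.5 and 52.9 in young 1, 2 and 3. Young 1 reached the level of the old libraries, while young 2 and young 3 lay below all of them. Means were 99.5 ± 25.8 in old and 55 ± 29.6 in young nerves, and the difference of 0.96 ± 0.42 did not pass in limma (adjusted p = 0.117). Without young 1 it was 1.35 and passed (limma, adjusted p = 0.0452), whereas without both young 1 and old 2 it did not (adjusted p = 0.0965). It was smaller without young 2 (0.53, limma adjusted p = 0.281) and with length and GC trends removed (0.52, limma adjusted p = 0.354).

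Of the 9 precursors, 5 (Pdyn, Penk, Calca, Tac1 and Npy) had enough reads for the fit across all 15882 genes. No call is given for Pdyn, around which the list was drawn up. Of the other 4, limma called 0 higher in old nerves, where 15.9% of all tested genes were called, and 0 lower, where 18.7% were, and 0 of them had an unadjusted p under 0.05. By edgeR (16.1% of all genes higher, 18% lower) and DESeq2 (18.6% higher, 20.5% lower) the count was 0 in both directions too. Without old 2 there were 0 higher (11.3% of all genes) and 1 lower, Penk (14.3%). Without young 1 there was 1 higher, Npy (9.65% of all genes), and 0 lower (12.6%). Without both libraries 3 of the 4 could be tested, with 0 higher (5.25% of all genes) and 1 lower, Penk (5.97%). This pair was the highest in all 9 precursors, so nothing further is read from that count. The old and young libraries overlapped in each of the 4, while over all tested genes they did not overlap with old higher in 25.5%, with old lower in 26.3% and in either direction in 51.8%.

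Levels were compared between genes as RPKM, reads scaled by library depth and by the length of the longest protein-coding transcript. In old nerves the order was Penk (9.43 ± 14), Npy (4.77 ± 1.28), Pdyn (1.78 ± 0.968), Tac1 (1.14 ± 1.89) and Calca (0.625 ± 0.407), with Calcb, Adcyap1, Vip and Cartpt at 0.252 or less. In young nerves it was Penk (15.8 ± 13), Tac1 (3.14 ± 4.59), Npy (2.51 ± 1.37), Vip (0.448 ± 0.682) and Calca (0.321 ± 0.16), with Adcyap1, Cartpt, Pdyn and Calcb at 0.206 or less. Pdyn was at rank 3 of 9 in old nerves, also with any 1 old library left out. In young nerves it was at rank 8 of 9, but at rank 5 without young 1, which carried most of Vip, Cartpt and Adcyap1, at rank 9 without young 2 and at rank 8 without young 3. In old nerves Npy (3.93 to 6.24) lay above Pdyn (1.16 to 2.9) in every library, whereas the ranges of the other neighbours in both orders overlapped.

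**Figure D2:**
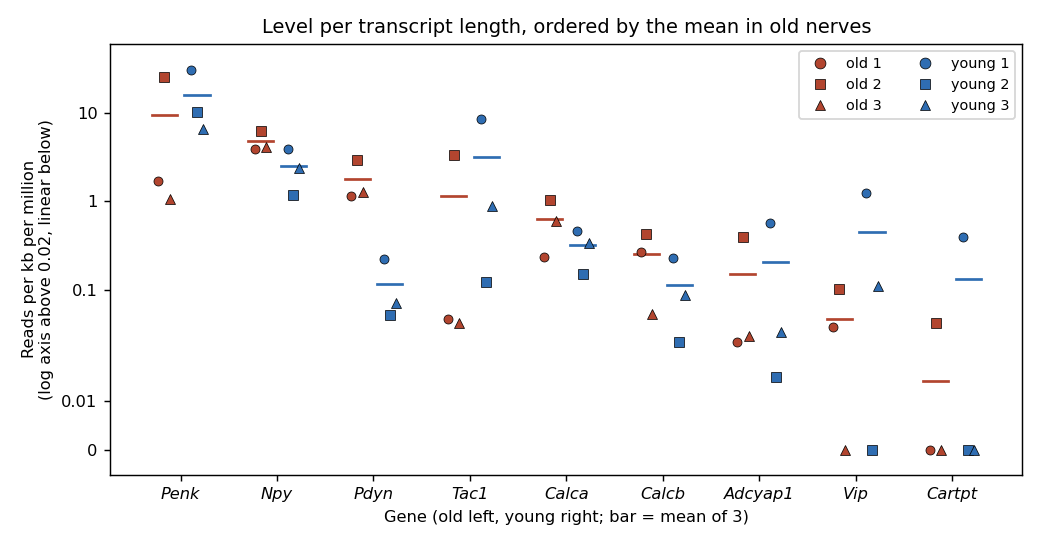
RPKM, reads scaled by depth and transcript length, for each precursor and library, ordered by the mean in old nerves, with old libraries left of young ones and a bar at the mean of 3. The axis is logarithmic above 0.02 and linear below. Pdyn lies at 1.16 to 2.9 in old nerves and at 0.0524 to 0.226 in young nerves.

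A pattern within the age groups ran through all 9 precursors, and it was noticed after their values were seen. Old 2 was the highest old library in 9 of 9, and young 1 was the highest young library in 9 of 9. Over all rows of the table old 2 was the highest old library for 28.2% of genes, young 1 was the highest young library for 33.6%, and both held for 13.9%. Over all tested genes the deviations of old 2 and young 1 from their group means had a correlation of 0.396. That was the highest for any old library with any young one, so these libraries also shared deviations beyond the precursors. Old 2 stood above the mean of the other old libraries by 1.52 times in Npy, 2.33 in Pdyn, 18.4 in Penk and 73.6 in Tac1. Young 1 stood above the mean of the other young libraries by 1.87 times in Calca, 3.59 in Pdyn, 21.9 in Vip and 23.3 in Adcyap1. Pdyn averaged 108 in old 1 and old 3 and 5.76 in young 2 and young 3, and the part of this pattern in its values was not tested.

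**Figure D3:**
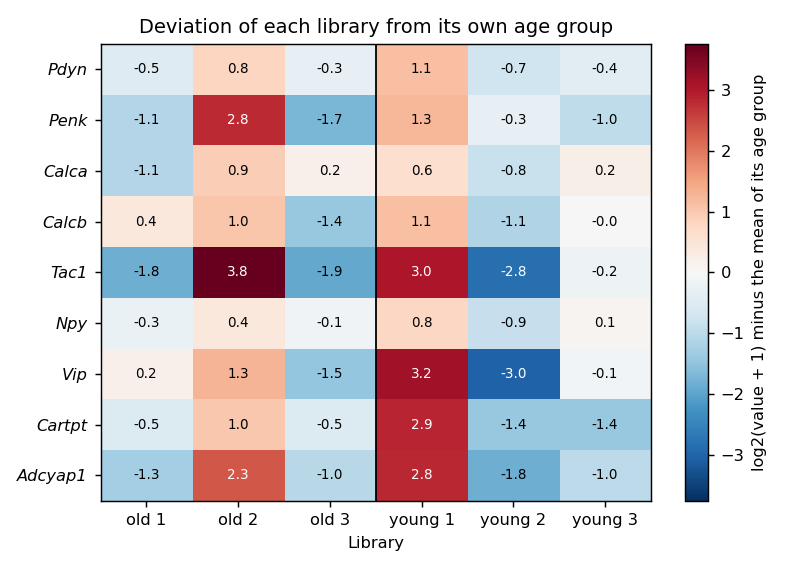
Deviation of each library from the mean of its own age group, on the log2(value + 1) scale, for the 9 precursors (rows) and 6 libraries (columns, old then young). Red is above and blue below the group mean. The columns of old 2 and young 1 are above it in all 9 rows.

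Some other genes were also high in 1 or both of these libraries. Vgf, the precursor of several secreted peptides, stood at 13.7, 58.8 and 15.5 in old 1, 2 and 3, against 1334, 29.5 and 112 in young 1, 2 and 3. Pcsk1, the convertase that cuts many precursors, stood at 10.6, 99.6 and 9.67 in old 1, 2 and 3, against 293, 2.95 and 40.7 in young 1, 2 and 3. Scg2, a granule protein, was at 108, 260 and 114 in old nerves and at 1422, 88.5 and 161 in young nerves, in the same order of libraries. Crh, the corticotropin-releasing hormone gene, was at 40.4 in young 1 and 2.95 in young 2. It had no read in young 3 or in any old library, so it followed young 1 and not old 2. These 4 genes were picked after their values were seen and do not stand for their lists. Among 19 genes of precursor processing and granules, old 2 was highest in 4 (21.1%, against 28.2% of all rows). Both libraries were highest in 3 of these 19 (15.8%), against 13.9% of all rows. Both were highest in 6 of 19 peptide receptors (31.6%), 2 of 12 degrading enzymes (16.7%) and 4 of 16 other precursors (25%). Young 1 was highest in 9 of the 19 processing genes (47.4%) and 15 of the 19 receptors (78.9%), against 33.6% of all rows. It was highest in 5 of the 12 enzymes (41.7%) and 10 of the 16 other precursors (62.5%). Old 2 was highest in 9 of the 19 receptors (47.4%), 3 of the 12 enzymes (25%) and 8 of the 16 other precursors (50%).

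The 5 genes listed as markers of central neurons were Gad1, Gad2, Slc32a1, Slc6a5 and Slc17a6. They summed to 2582, 4808 and 4028 in old 1, 2 and 3, against 8532, 4663 and 4945 in young 1, 2 and 3. Old 2 was the highest old library in 4 of the 5 and young 1 the highest young library in 4 of the 5. Most of each sum was Slc17a6, a vesicular glutamate transporter gene. It stood at 2523, 4679 and 3934 in old 1, 2 and 3, against 8261, 4575 and 4836 in young 1, 2 and 3. Bulk RNA cannot assign Slc17a6 to central neurons or to the nerve's own neurons, so the sums do not measure central neurons. Of the 5 genes, 2 had no read in some library. Gad2, which makes GABA, stood at 7.4, 36.1 and 24.2 in old nerves and at 135, 10.8 and 7.71 in young nerves. Osteoblast markers were highest in old 2 in 5 of 5 and in young 1 in 4 of 5, and leukocyte markers in 5 of 5 for both libraries. Fibroblast and meninges markers were highest in old 2 in 4 of 5 and in young 1 in 2 of 5, with sums of 64011, 85411 and 42042 in old 1, 2 and 3, against 48554, 44273 and 49273 in young 1, 2 and 3, whereas hair cell markers were highest in old 2 or young 1 in 0 of 5. Neuron markers were highest in old 2 in 0 of 8 and in young 1 in 6 of 8. Noradrenergic markers were highest in old 2 in 1 of 3 and in young 1 in 3 of 3. For type II afferents these counts were 0 and 1 of 2, and for nociceptors and visceral sensory neurons 0 and 3 of 4. For Schwann cells they were 2 and 3 of 5. Th is counted under both noradrenergic neurons and type II afferents. The part of these cell types in the precursor values was not tested.

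**Figure D4:**
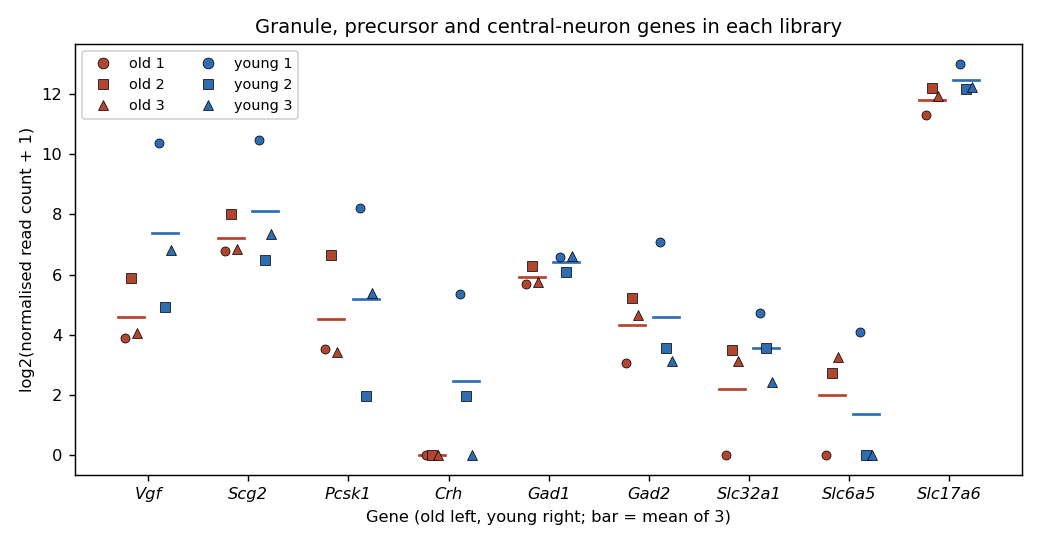
Normalised read counts, as log2(value + 1), of 4 granule, precursor and convertase genes and 5 genes listed as central-neuron markers in each library. Old libraries are left of young ones, with a bar at the mean of 3. Young 1 is the top young point for all genes shown except Gad1, where young 3 is higher.

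The receptors of these peptides were measured in part. Of 22 receptor genes listed, 19 had a row and 12 were tested, of which 1 was called higher and 1 lower in old nerves (limma, adjusted p under 0.05), where 15.9% and 18.7% of all tested genes were. The 2 calls of 12 compare with 34.6% of all tested genes in either direction. The receptors had a median log2 fold change of 0.05 against 0.00 over all tested genes. Sstr4, a somatostatin receptor, fell to 37, 122 and 41.6 in old nerves, against 232, 153 and 196 in young nerves (-1.72 ± 0.45, limma adjusted p = 0.0248). Ramp1, which joins Calcrl to form the CGRP receptor, rose to 612 ± 27.3 in old nerves, against 471 ± 50.2 in young nerves (0.38 ± 0.11, limma adjusted p = 0.031), and Calcrl itself had a difference of -0.17 ± 0.14 (adjusted p = 0.377). The count of calls was 0 without old 1, young 2 or young 3 and 1 without each of the other 3 libraries. Over all tested genes the 5493 calls became 3731, 2589 and 3077 without old 1, young 2 and young 3. Sstr4 kept its call only without old 2, and Ramp1 only without old 3 or young 1. With length and GC trends removed Ramp1 was at 0.29 (limma, adjusted p = 0.0744), while 2 receptors were called, Sstr4 among them (-1.73, adjusted p = 0.0322).

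Oprk1, the kappa receptor on which dynorphins act, was close to the limit of detection, at 13.7, 11.4 and 23.2 in old nerves and 27.3, 6.88 and 2.2 in young nerves (0.88 ± 0.79, limma adjusted p = 0.416). Its difference was 1.71 without young 1, 0.14 without young 3 and 0.38 by edgeR. The genes of the delta and mu receptors, Oprd1 and Oprm1, are not analysed here. Adcyap1r1, the PACAP receptor, was well expressed, at 993, 1290 and 1429 in old nerves and 1905, 1223 and 987 in young nerves, and Npy1r stood at 251 ± 126 in old and 226 ± 57.1 in young nerves. Neither passed, with differences of -0.11 ± 0.25 and 0.06 ± 0.38 (limma, adjusted p = 0.757 and 0.915). Vipr2 (1.12 ± 0.40, adjusted p = 0.0681), Tacr3 (0.78 ± 0.30, adjusted p = 0.0799), Tacr1, the substance P receptor (-1.32 ± 0.61, adjusted p = 0.13), and Vipr1 (0.04 ± 0.90, adjusted p = 0.977) did not pass in limma. Sstr1, Sstr2, Sstr3, Npy2r and Npy5r had too few reads to be tested, and Npy5r was at 0 in all 3 old libraries and at 21.6, 0.983 and 1.1 in young 1, 2 and 3.

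Genes that cut, trim and package precursors were all tested. Of the 19, 6 fell, where 18.7% of all tested genes fell, and 2 rose in old nerves, where 15.9% rose. These were 8 calls, where 34.6% of all tested genes were called in either direction. A negative log2 fold change was found in 16, and in 7958 of all 15882 tested genes. The median log2 fold change was -0.48 against 0.00 over all tested genes. The convertase gene Pcsk2 fell to 2100 ± 556 in old nerves, against 3889 ± 818 in young nerves (-0.91 ± 0.23, limma adjusted p = 0.0216), and Furin, a convertase of the Golgi, to 2220 ± 135, against 3121 ± 232 (-0.49 ± 0.08, adjusted p = 0.00707). Ptprn, a granule membrane protein, fell by 1.23 on the log2 scale (limma, adjusted p = 0.02). Qpct, which forms pyroglutamate at peptide ends, rose by 0.83 ± 0.16 (limma, adjusted p = 0.0105) and Cadps2, a granule priming factor, by 1.05 ± 0.23 (adjusted p = 0.0152). Chga (-0.76), Cadps (-0.62) and Ptprn2 (-0.87) fell as well, and Cpe, the carboxypeptidase that trims most neuropeptides, had a difference of -0.48 ± 0.17 (limma, adjusted p = 0.0675) that passed in DESeq2 (adjusted p = 0.0218).

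These calls depended on single libraries and on the trends with gene length and GC content. The 8 calls became 5 without old 2, 3 without young 1 or young 2 and 4 without young 3, while 6 and 11 were made without old 1 and old 3. Over all tested genes the 5493 calls became 4104, 3565, 2589 and 3077 without old 2, young 1, young 2 and young 3. They became 3731 and 6117 without old 1 and old 3. Furin and Qpct passed in all 6 of these fits, Cadps2 in 5, Ptprn and Pcsk2 in 4, Chga in 2, Cadps in 1 and Ptprn2 in 0. With length and GC trends removed, Furin was at -0.16 (limma, adjusted p = 0.29), Qpct at 0.49 (adjusted p = 0.0661), Cadps at -0.44 (adjusted p = 0.0671) and Ptprn2 at -0.76 (adjusted p = 0.0733). All 4 lost their call. Other genes gained one, such as Cpe at -0.66 (limma, adjusted p = 0.0332), so that 7 of the 19 were called. Of the 8 neuron markers in the same libraries, 4 were called lower in old nerves, where 18.7% of all tested genes were. Their median log2 fold change was -0.50, and the part of neuron content in the falls above was not tested.

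**Figure D5:**
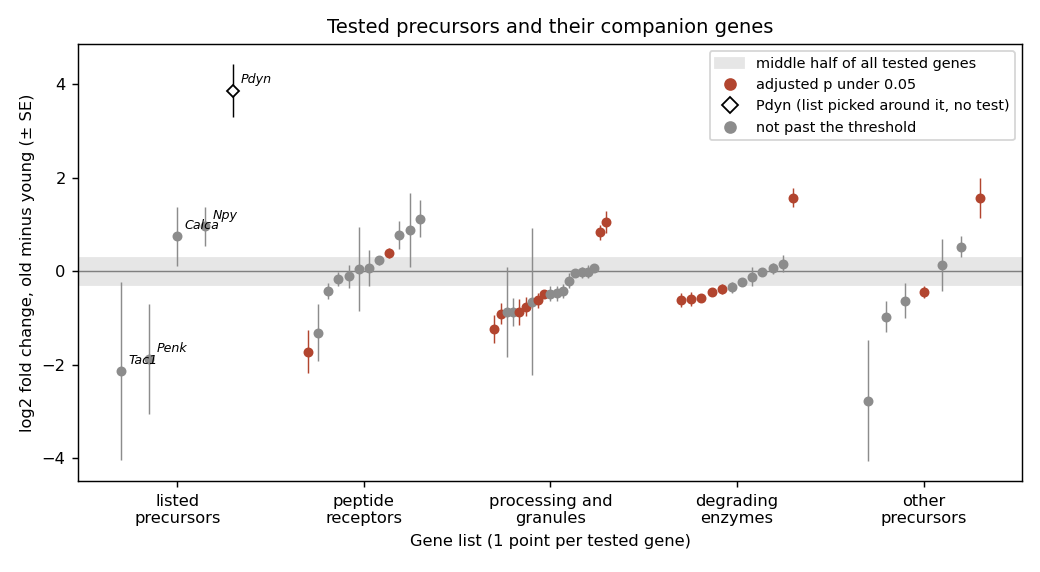
Log2 fold change, old minus young, with its SE for each tested gene of the 5 lists. Red points passed an adjusted p under 0.05 in limma, grey points did not, and the open diamond is Pdyn, shown with no test. The band spans the middle of all tested genes from the lower to the upper quartile. The processing and granule genes lie mostly below 0, with a median of -0.48.

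Among 12 enzymes that degrade peptides, all tested, 5 fell, where 18.7% of all tested genes fell, and 1 rose, where 15.9% rose (34.6% in either direction). Their median log2 fold change was -0.29, against 0.00 over all tested genes. Dpp4, which clips NPY, rose to 4632, 3297 and 4223 in old nerves, against 1069, 1260 and 1815 in young nerves (1.57 ± 0.21, limma adjusted p = 0.00507). Lnpep, an aminopeptidase, fell to 2603 ± 62.6, against 3868 ± 243 in young nerves (-0.57 ± 0.07, limma adjusted p = 0.00464), and Npepps fell by 0.45 on the log2 scale (adjusted p = 0.00913). Anpep (-0.61), Ece2 (-0.60) and Prep (-0.39) were called lower too. With length and GC trends removed Prep was at -0.05 and lost its call (limma, adjusted p = 0.708), and Lnpep was at -0.32 and kept it (adjusted p = 0.0159). Dpp4, Lnpep and Npepps passed with each library left out in turn (Npepps not without both young 1 and old 2, adjusted p = 0.0768), and the 6 calls became 3 without young 1, young 2 or young 3. Over all tested genes the 5493 calls became 3565, 2589 and 3077 without young 1, young 2 and young 3.

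Of 30 other peptide precursors listed, 16 had a row and 7 were tested, of which 1 rose and 1 fell, where 15.9% and 18.7% of all tested genes did, and the median log2 fold change was -0.44. Adm, which encodes the vasodilator adrenomedullin, rose to 311, 460 and 134 in old nerves, against 107, 83.6 and 81.5 in young nerves (1.56 ± 0.42, limma adjusted p = 0.027). Edn3, the endothelin-3 gene, fell to 188 ± 5.57 in old nerves, against 256 ± 28.5 in young nerves (-0.44 ± 0.13, limma adjusted p = 0.0409). The 2 calls became 0 without old 1, young 1 or young 2 and 1 without each of the others. Over all tested genes the 5493 calls became 3731, 3565 and 2589 without old 1, young 1 and young 2. With length and GC trends removed neither Adm (1.23, limma adjusted p = 0.0592) nor Edn3 (-0.46, limma adjusted p = 0.0503) passed. Pomc (-0.98 ± 0.33, adjusted p = 0.0562) passed only without old 2 (adjusted p = 0.0377), and Nmb (0.52 ± 0.22, adjusted p = 0.107) did not pass in limma. Vgf did not pass in limma either (-2.77 ± 1.30, adjusted p = 0.137), while DESeq2 gave -4.07 (adjusted p = 0.0169), and without young 1 limma gave -1.27 (adjusted p = 0.278).

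The genes whose values ran most like those of Pdyn over the 6 libraries were taken by Pearson's r on the log2(value + 1) scale among 14092 tested genes with a mean of at least 50. They were Elovl2, a fatty acid elongase (0.996), Gfap, an intermediate filament of astrocytes and nonmyelinating glia (0.996), Ndufa1, a subunit of respiratory complex I (0.993), Casp4, an inflammatory caspase (0.993), and Brms1, a part of histone deacetylase complexes (0.992). Gfap stood at 26859, 35071 and 25119 in old 1, 2 and 3, against 15782, 9882 and 11725 in young 1, 2 and 3. With 6 libraries in 2 age groups such values are common, and 299 genes had an r above 0.95.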

How the data were processed

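Per the labels' protocols, total RNA was extracted with a miRNeasy kit, samples of low RNA quality were dropped, and a TruSeq RNA kit was used. The submitters' processing notes name TopHat2, Partek, DESeq2 and mm10, and no source used here gives settings, annotation or strandedness. The 6 sample columns hold a signal the authors deposited: read counts divided by 1 size factor per library. Dividing by the value of 1 read recovered whole reads (within 0.1) for 99.931% to 99.971% of values above 0. The deposited p-values, the FDR (absent for 342 genes) and the signed fold change, a score here, are the authors' own. The lowest total of a gene is 9.41, so genes with less were not analysed here. Gene ends are printed as the deposited stop less 1.

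The main test was limma 3.58.1 with trended variances, two-sided and adjusted by Benjamini-Hochberg over 15882 genes kept by edgeR's filterByExpr (minimum count 10, minimum total 15), at a threshold of 0.05. Values entered as log2(value + 1), which understates the change of low genes. As a count test, edgeR 4.0.16 was run on those reads and gave 5418 called genes (limma 5493). Other alternatives were DESeq2 1.42.0, other scalings, filters and pseudocounts, trends in length and GC (GENCODE M21, mgcv 1.9.3), a replicate block, libraries left out, and, added after seeing the data, the authors' own FDR and the rank of Pdyn with 1 library left out. Young 1 and old 2, left out together in 1 fit, were the highest libraries of their groups in all 9 precursors. Calls of precursors from that fit are descriptions. The steps were tested on simulated counts. The precursors and all gene lists were chosen with earlier results of these data known. By rule, the genes named are all precursors, the 4 of each list with the smallest p, the precursors' receptors and the 5 genes most like Pdyn. Other genes were named after their values were seen: further called genes, Vgf, Scg2, Pcsk1, Crh, Cpe and the markers. Counting error only is covered by the limit given for a count of 0.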

Additional observations from a re-analysis of the deposited data

How the results depend on the processing

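Leaving out 1 library at a time gave 2589 to 6117 genes called, 1 to 2 precursors called higher (Pdyn, for which the list was chosen, is counted and nothing is read from it), 0 to 1 lower, 0 to 1 receptors, 3 to 11 processing and granule genes, 3 to 7 degrading enzymes and 0 to 1 other precursors. With the replicate block, 2711 genes, 0 receptors, 4 processing genes, 3 degrading enzymes and 1 other precursor were called. The deviations of same-numbered libraries had correlations of -0.291, -0.412 and -0.05. With 3 libraries per group these values cannot tell whether same-numbered libraries were handled together, and the labels give no pairing. Without young 1 and old 2 there were 1776 genes, 1 precursor called lower, 1 receptor, 3 processing genes, 3 degrading enzymes and 0 other precursors. Removing length and GC trends gave 3408 genes, 2 receptors, 7 processing genes, 5 degrading enzymes and 0 other precursors called. It ended the calls of Ramp1, Furin, Qpct, Cadps, Ptprn2, Prep, Adm and Edn3, while other genes gained a call. With upper-quartile scaling 1 other precursor was called, and by the authors' own FDR 5 were. Upper-quartile scaling moved the median of all genes by 0.08 and the share of calls that were higher to 59.5%, against 45.9% in the main test. Signs turned only for genes that passed no test here: Npy1r (-0.12 with trends removed, -0.16 without young 1 and old 2, -0.31 to 0.44 with 1 library left out), Adcyap1r1 (0.16, 0.12, and -0.32 to 0.15), and, with 1 library left out, Vipr1 (-0.69 to 0.80), Scg2 (-1.69 to 0.30) and Pcsk1 (-2.26 to 0.85). The causes were not tested. Depth limits Calcb, Vip, Cartpt and Adcyap1, which had too few reads for the test.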
